A study of Mus musculus with 4 samples.

Results

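The regions described here were stretches of open chromatin at the end of a single protein-coding gene, most of them promoters, in wild-type and Chd7-/- cells of G1ER, an erythroblast line of the mouse. Peaks of the 4 libraries were merged wherever they overlapped on chromosomes 1 to 19 and X. A region was kept if at least 2 libraries had a peak in it and if it lay within 1 kb of an end of exactly 1 protein-coding gene (GRCm38 RefSeq starts and ends). The rule took 5596 regions, which was 46.7% of the 11994 regions called in at least 2 libraries and came from 15316 merged regions in all. Of the remaining regions called in at least 2 libraries, 1440 lay at ends of 2 or more genes, 2808 inside a gene away from its ends and 2150 between genes. The rule used position and a minimum number of calls, and neither genotype nor peak height.

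ATAC-seq marks accessible DNA by letting a transposase cut it and attach adapters there. G1ER cells derive from cells without Gata1 and express a fusion of GATA1 with the ligand-binding part of the estrogen receptor, so both genotypes share that background, and both were grown with EPO and SCF-conditioned medium without further treatment. There were 2 libraries of wild-type cells and 2 of Chd7-/- cells, each from 50000 cells, and in each genotype replicate 1 carried the label 1 h and replicate 2 the label 2 h, the range that the protocol gives for transposition. The descriptions of the knockout libraries share 1 code. Whether replicates came from separate cultures, and the knockout from 1 clone or more, is not given in the sources used here, so differences between genotypes could not be told apart from differences between lines, and the spread between replicates may be technical. The peak lists ran from 11074 to 12033 peaks for the wild type and from 11361 to 12431 for the knockout. No region called in at least 2 libraries lay at an end of Chd7 itself, so these regions hold no check of the knockout.

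The start of an active gene is usually kept free of nucleosomes, so that general transcription factors and RNA polymerase can assemble there. Many mammalian promoters lie in CpG islands and hold sites for widely expressed factors of the ETS, SP, NFY, NRF1 and YY1 classes, whereas erythroid genes often hold sites for GATA factors. CHD7 is an ATP-dependent remodeller that slides nucleosomes, and the series title sets it beside RUNX1, a transcription factor of blood formation.

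The 250 bases before the start of 9 genes whose start lay in one of these regions are shown 5′ to 3′ on the transcribed strand, from RefSeq on GRCm38.p6, with motif letters in capitals on whichever strand they matched. The first 5 stand for the sequence classes found at these starts and belong to regions called in all 4 libraries. Hibch (chr1:52844788-52845037, plus strand), an enzyme of valine breakdown, had the strongest region at a start and 4 copies of the SP letters GGGCGGGG. Grpel1 (chr5:36464935-36465184, plus strand), a helper of mitochondrial protein import, held the ETS letters CCGGAAG. Zfp639 (chr3:32510342-32510591, plus strand), a zinc finger gene, held 2 overlapping matches to the NRF1 letters GCGCATGCG, and Git2 (chr5:114773493-114773742, minus strand), a GTPase-activating protein, held the YY1 letters AAGATGGCG. Stip1 (chr19:7040027-7040276, minus strand), a co-chaperone, held the TATA box letters TATAAA 30 bases before its start.
Hibch: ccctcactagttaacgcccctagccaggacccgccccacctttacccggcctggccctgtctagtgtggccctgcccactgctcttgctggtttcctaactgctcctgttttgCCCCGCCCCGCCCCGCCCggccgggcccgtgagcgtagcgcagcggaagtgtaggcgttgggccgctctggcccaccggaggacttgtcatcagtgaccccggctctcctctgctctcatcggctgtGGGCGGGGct
Grpel1: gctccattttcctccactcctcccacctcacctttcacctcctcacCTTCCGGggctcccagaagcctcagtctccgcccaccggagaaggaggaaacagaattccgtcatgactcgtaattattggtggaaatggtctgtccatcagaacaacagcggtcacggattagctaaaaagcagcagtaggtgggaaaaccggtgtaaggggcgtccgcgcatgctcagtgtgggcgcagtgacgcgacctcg
Zfp639: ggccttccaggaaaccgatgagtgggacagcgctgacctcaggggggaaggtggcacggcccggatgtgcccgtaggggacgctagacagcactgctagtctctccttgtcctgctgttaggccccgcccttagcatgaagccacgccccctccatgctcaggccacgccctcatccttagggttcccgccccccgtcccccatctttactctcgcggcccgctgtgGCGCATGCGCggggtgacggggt
Git2: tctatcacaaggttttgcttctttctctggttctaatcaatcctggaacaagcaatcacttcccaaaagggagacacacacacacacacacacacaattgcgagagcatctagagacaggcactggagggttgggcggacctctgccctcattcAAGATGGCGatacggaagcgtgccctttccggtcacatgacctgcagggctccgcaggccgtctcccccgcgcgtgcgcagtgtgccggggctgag
Stip1: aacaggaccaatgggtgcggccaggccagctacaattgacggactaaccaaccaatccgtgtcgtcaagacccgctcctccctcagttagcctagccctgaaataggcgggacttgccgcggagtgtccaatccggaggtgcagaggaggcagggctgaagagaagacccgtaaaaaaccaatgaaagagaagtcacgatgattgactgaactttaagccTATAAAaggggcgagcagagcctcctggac

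The other 4 show an erythroid start and starts picked for their values by genotype, with every match to the 18 motifs searched in capitals. Of the picked starts, Fchsd2 did not pass the limma test described below, and Vbp1 and Epb42 were not in it. Kel (chr6:41704326-41704575, minus strand), which encodes a red cell blood group protein, was called in all 4 libraries and held the GATA letters AGATAA and TGATAA and the AP-1 letters TGACTCA. Vbp1 (chrX:75514047-75514296, plus strand), a prefoldin subunit, was the strongest region called in both knockout libraries alone and held the NFY letters CCAATCA in 2 places. Epb42 (chr2:121036878-121037127, minus strand), the red cell membrane protein 4.2, was called in both wild-type libraries alone and held AGATAA, the E-box letters CAGCTG and TATAAA. Fchsd2 (chr7:101108525-101108774, plus strand), an endocytosis and actin protein, had one of the lower pileups in the knockout and held GGGCGGGG in 2 places and CAGCTG.
Kel: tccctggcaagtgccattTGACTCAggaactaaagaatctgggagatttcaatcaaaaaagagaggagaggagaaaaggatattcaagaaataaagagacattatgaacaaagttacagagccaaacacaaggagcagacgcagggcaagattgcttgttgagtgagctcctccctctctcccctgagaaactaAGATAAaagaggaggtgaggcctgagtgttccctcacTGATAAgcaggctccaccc
Vbp1: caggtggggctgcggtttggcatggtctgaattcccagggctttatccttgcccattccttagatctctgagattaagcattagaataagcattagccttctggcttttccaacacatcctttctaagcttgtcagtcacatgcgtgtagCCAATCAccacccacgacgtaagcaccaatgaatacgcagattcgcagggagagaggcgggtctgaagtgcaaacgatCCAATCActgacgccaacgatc
Epb42: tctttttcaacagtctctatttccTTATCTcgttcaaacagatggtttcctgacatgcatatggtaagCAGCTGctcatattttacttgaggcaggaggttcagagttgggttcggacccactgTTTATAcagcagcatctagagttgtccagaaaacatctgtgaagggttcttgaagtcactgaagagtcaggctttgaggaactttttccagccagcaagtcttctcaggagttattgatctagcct
Fchsd2: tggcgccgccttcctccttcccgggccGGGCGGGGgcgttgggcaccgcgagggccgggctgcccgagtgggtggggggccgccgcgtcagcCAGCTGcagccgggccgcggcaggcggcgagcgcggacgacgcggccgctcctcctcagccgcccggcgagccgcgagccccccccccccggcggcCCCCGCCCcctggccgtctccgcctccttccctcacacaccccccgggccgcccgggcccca

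Nearly all of these regions sat at the start of their gene and not at its 3′ end. Of the 5596 regions, 4727 (84.5%) covered the end base of the gene itself, 517 lay 1 to 500 bases from it and 352 farther out to 1 kb. RefSeq gave a strand for 4571 of them. Of these, 4410 lay at the start, 117 at the 3′ end and 44 at both ends of a short gene, so 97.4% were at a start and 2.56% at a 3′ end alone (exact 95% binomial interval 2.12% to 3.06%, counting error only). The regions belonged to 5431 genes, 25.1% of the 21631 protein-coding genes on these chromosomes. Of these genes, 5267 had 1 region, 163 had 2, and Ybx3, a cold-shock domain protein that binds DNA and RNA, had 3. Its region over the start had pileups of 16 and 23 in the wild type and 29 and 21 in the knockout, its farthest had 21 and 15 against 29 and 18, and the one between them was called in the wild type alone. In 38 genes 1 region lay at the start and another at the 3′ end.

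At the median, regions at 1 gene end were wider and stronger than the other regions pooled, and those at a start were wider than those at a 3′ end. The median width was 627 bases, against 487 for the other regions called in at least 2 libraries. Regions at a start had a median width of 634 bases and those at a 3′ end 431 bases. Strength, the lowest percentile of the region's fold enrichment within the lists that call it, had a median of 46.6 for all of them, 48.5 at starts and 17.3 at 3′ ends, against 24.5 for the other regions. Among those others, regions at ends of 2 or more genes were wider (675 bases) and stronger (52.3) at the median than regions at 1 gene end. The widest region at 1 gene end, at the start of the cytokine receptor gene Crlf2, was 2334 bases long with a strength of 16.4 and pileups of 79, 89, 98 and 82. Next came Srsf6, a splicing factor, with 1755 bases, Hcfc1, a transcriptional coregulator, with 1649 bases, Ankrd10 with 1636 and the SP-family gene Sp4 with 1611.

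The 10 strongest regions called in all 4 libraries were led by a pair at 3′ ends. Pileup here is the number of overlapping fragments at the summit, recovered from the deposited fold enrichment and p-value. The region 663 bases from the 3′ end of Wls, a carrier of Wnt ligands, had pileups of 140 and 139 in the wild type and 138 and 144 in the knockout, replicate 1 first here and below. At the 3′ end of Lars2, the mitochondrial leucyl-tRNA synthetase, they were 135 and 141 in the wild type and 147 and 141 in the knockout. In both, every library stood above every library of the 8 starts below, and at Wls the genotypes overlapped. Whether regions of artificially high signal had been removed before deposit is not given in the sources used here. The other 8 were at starts: Hibch (76 and 107 in the wild type, then 97 and 87 in the knockout), Sspn (52, 62, 64 and 55), Actl6a, a subunit of BAF remodelling complexes (60, 72, 77 and 67), the mediator subunit Med6 (59, 66, 66 and 67), the corepressor Cbfa2t2 (62, 94, 84 and 64), the vesicle coat subunit Ap3d1 (68, 77, 88 and 81), the ubiquitin ligase Shprh (74, 72, 86 and 72) and the kinase Stk11 (75, 80, 74 and 73). At none of the 10 did the difference by genotype pass the limma test described below.

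Summits at starts lay just before the annotated start at the median of each library. Over regions at a start or at both ends, the median summit was 46 bases before the nearest annotated start of the gene in wild-type replicate 1 and knockout replicate 2, 43 in wild-type replicate 2 and 44 in knockout replicate 1. Between 63.1% and 64.9% of summits lay within 100 bases of a start, and between 74.4% and 76.3% lay before it. For the 3774 such regions called in all 4 libraries, the median distance between the summits of the wild-type replicates was 28.5 bases, between the knockout replicates 29 bases, and between genotypes 29 bases at 1 h and 28 bases at 2 h. Median distances between genotypes were thus close to those between replicates. Over all 4 libraries the summits of a region had a median range of 74 bases, and those of 2409 regions (63.8%) lay within 100 bases of each other.

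**Figure D1:**
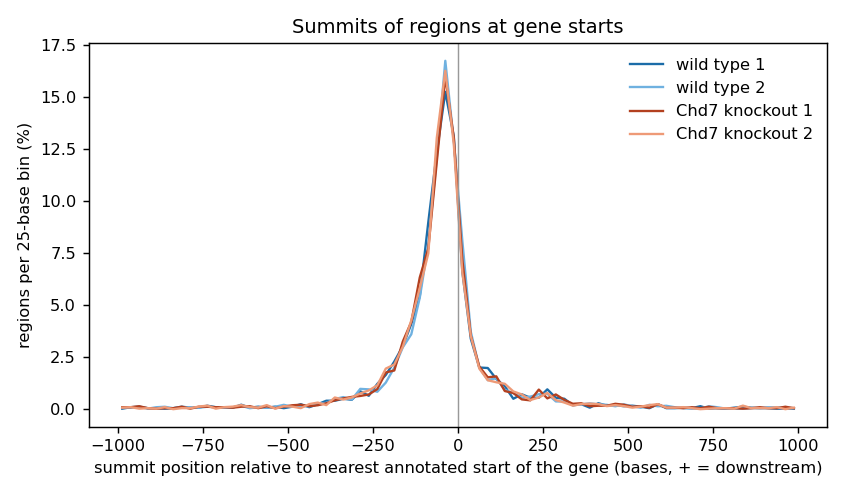
Percent of regions at gene starts (vertical axis) whose summit falls in each 25-base bin relative to the nearest annotated start of the gene (horizontal axis, bases, positive downstream), 1 line per library. The 4 lines peak at the same bin just before the start, with medians 43 to 46 bases before it.

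Most regions were shared by all libraries. Of the 5596, 4697 (83.9%) were called in all 4 libraries, against 72.5% of all regions called in at least 2. The share was 84.9% at starts, 57.3% at 3′ ends, 68.2% at both ends, 87.0% for regions at ends of 2 or more genes, 56.9% inside genes and 53.5% between genes. The share at starts was near that at several gene ends, and the share at 3′ ends near that inside genes. Wild-type replicates called 5249 and 5389 of the 5596 regions and knockout replicates 5292 and 5138, 5319 ± 99.0 against 5215 ± 109 (mean ± SD, n = 2 each). The difference of -104 was within the spread (exact two-sided permutation test, p = 0.667, where 2 against 2 cannot go below 0.333). They made up 48.1% and 45.3% of the regions called in the wild type and 43.2% and 45.8% in the knockout (difference -2.20 percentage points, exact permutation p = 0.667). This difference was -0.195 without wild-type replicate 1, -0.872 without knockout replicate 1, -3.63 without knockout replicate 2, -0.783 with −log10 q of at least 5 and -1.32 with lists of equal length.

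Regions called in 1 genotype alone were few and weak. Calls in both knockout libraries, with none in the wild type, were seen at 67 (1.20%, exact 95% interval 0.929% to 1.52%), against 3.46% of all regions called in at least 2 libraries. Calls in both wild-type libraries, with none in the knockout, were seen at 114 (2.04%, interval 1.68% to 2.44%), against 2.88% of all. Among the other 6398 regions called in at least 2 libraries, the counts were 348 in the knockout alone and 232 in the wild type alone, the opposite order. Within those others, regions at ends of 2 or more genes kept the order seen at 1 gene end, with 14 in the knockout alone and 23 in the wild type alone. At 1 gene end, the median strength was 13.7 for regions of the knockout alone and 13.0 for those of the wild type alone, against 54.9 for those called in all 4 libraries, and 1 region of each class lay above the middle of its lists. Leaving out 1 library of the other genotype raised the counts, since 1 call fewer had to be absent: the knockout count became 118 without wild-type replicate 1 and 205 without wild-type replicate 2, and the wild-type count 324 without knockout replicate 1 and 207 without knockout replicate 2. The lowest background of the libraries, a measure of depth, was 0.787 and 1.08 in the wild type and 1.04 and 1.01 in the knockout, and the part of depth in these counts was not tested. With lists of equal length the counts were 55 in the knockout alone and 126 in the wild type alone. At 1 gene end, 236 regions (4.22%, against 8.04% of all) were called in exactly 1 library of each genotype. Wild-type replicate 2 shared 83 of these with knockout replicate 1 and 64 with knockout replicate 2. For wild-type replicate 1 these numbers were 56 and 33. The 67 regions of the knockout alone lay within the range of these mixed pairs, and the 114 of the wild type alone above it.

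**Figure D2:**
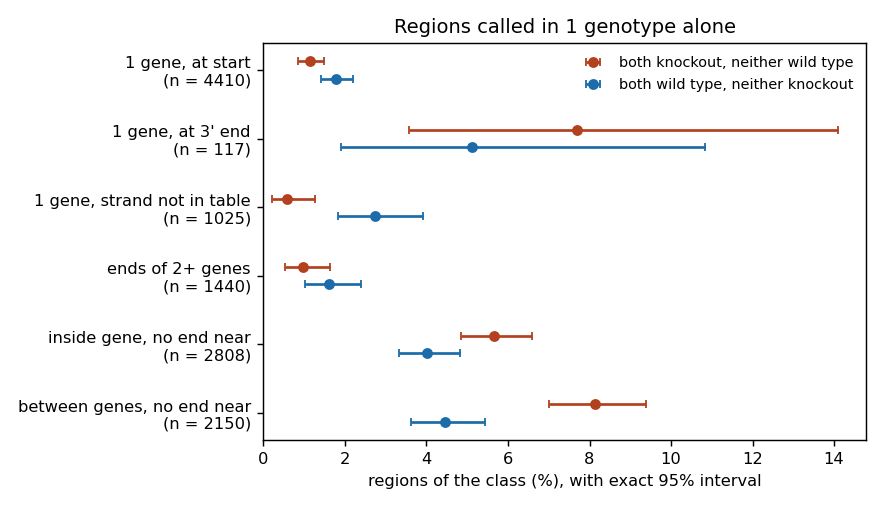
Percent of the regions of each class (horizontal axis) called in both knockout libraries alone (red) or both wild-type libraries alone (blue), with exact 95% binomial intervals that cover counting error only. At starts of 1 gene both shares lie under 2%, while the knockout share is 5.66% inside genes and 8.14% between genes.

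The strongest region of the knockout alone was at the start of Vbp1 (sequence above), with a pileup of 19 in each knockout library and a strength of 71.4. Ccno, a cyclin, followed with 17 and 14, Zfp239 with 16 and 14, and Ntan1, an amidase of the N-degron pathway, with 18 and 18. Cdk20, Capn1, Fbxl20, Melk and Tmed9 had pileups of 11 to 16 at their starts, and Hs2st1, a heparan sulfate sulfotransferase, had 14 and 13 near its 3′ end. Added after their values were seen, the knockout alone also had calls at the red cell carbonic anhydrase gene Car1 (11 and 9) and at Tcf12, an E protein that pairs with TAL1 (12 and 10). At regions of 1 gene end called in all 4 libraries, the smallest pileup was 7 in each knockout library and the lower quartile was 19 in replicate 1 and 17 in replicate 2. Vbp1 reached that quartile in both knockout libraries and Ntan1 in replicate 2, while the other regions named here lay under it in both.

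The strongest region of the wild type alone was at Erich1, with pileups of 28 and 27 and a strength of 72.7. It was followed by Ttc25, a ciliary docking protein, with 13 and 15, Cdca7, a cell cycle gene that MYC activates, with 18 and 15, and Tmem35b with 14 and 15. The mediator subunit Med15 had 12 and 18, Metrn 13 and 15, Nckap1l, a WAVE complex subunit of blood cells, 13 and 13, the lysosomal enzyme Naglu 13 and 14, the small GTPase Rap1a 15 and 15, and Hus1, of the DNA damage checkpoint clamp, 11 and 16. Epb42, added after its values were seen, had 9 and 12. Erich1 stood apart from the rest, which were all at or under 18.

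No region at 1 gene end passed the threshold for a difference between genotypes in the test across all regions. On log2(pileup + 1), centred on each library's median, limma with Benjamini-Hochberg adjustment over the 8698 regions called in all 4 libraries called 0 higher (0% of all regions) and 0 lower (0%) in the knockout at an adjusted p under 0.05. Of the 4697 regions at 1 gene end in that test, 322 (6.86%) had an unadjusted p under 0.05, against 8.70% of all regions, with 131 higher and 191 lower in the knockout. The order was the opposite over all 8698 regions (437 higher and 320 lower) and over the 4001 tested regions elsewhere (306 higher and 129 lower). Within the latter, regions at ends of 2 or more genes were nearly even, with 30 higher and 32 lower. The lowest limma adjusted p among the regions at 1 gene end was 0.292, and the median standard error of a difference was 0.197 on the log2 scale. A difference of at least 0.5 in size was seen at 239 (5.09%), against 6.92% of all. Both knockout libraries lay above both wild-type libraries at 827 (17.6%, against 21.4% of all) and below them at 899 (19.1%, against 17.3% of all). The median difference was -0.0036 at these regions and 0.02 over all regions tested. With 2 libraries a genotype, a missed threshold does not show that a region was equally open, and fewer cells with an open region cannot be told apart from less opening in each cell. The count depended on the settings: without knockout replicate 2, 21 of 4910 regions passed (2 higher, 19 lower), without knockout replicate 1, 1 passed, with a trend of the variance on the mean, 2 passed, and with scaling by the lowest background, which moves the median of all regions to -0.21, 42 passed, all lower.

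**Figure D3:**
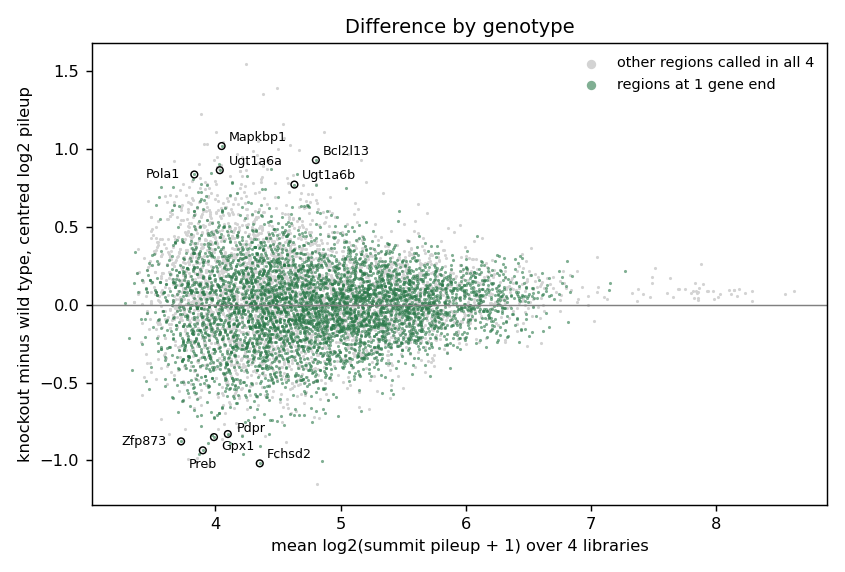
Difference between genotypes (vertical axis, knockout minus wild type, centred log2 pileup) against the mean log2(pileup + 1) over the 4 libraries (horizontal axis), 1 point per region called in all 4 libraries. Regions at 1 gene end (green) centre on zero and spread less than the others (grey). The 10 named genes have the largest limma statistics in each direction among the regions at 1 gene end, without passing the threshold.

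Among regions at 1 gene end, those with the largest limma statistics were at modest pileups, and their libraries did not overlap between genotypes. They were picked by that statistic, and by centred pileup 21.4% of all regions had the knockout wholly above the wild type and 17.3% wholly below. The highest statistic was at a region 848 bases upstream of Bcl2l13, a mitochondrial protein of the BCL2 family, with pileups of 17 and 23 in the wild type and 39 and 34 in the knockout (difference 0.93 ± 0.19 SE, limma adjusted p = 0.292). A separate region over the Bcl2l13 start had 17 and 32 in the wild type and 18 and 19 in the knockout (-0.24 ± 0.24), so the higher values were at the upstream region, which also lay within 1 kb of a long non-coding gene. Mapkbp1, a scaffold of JNK signalling, had 10 and 12 in the wild type and 20 and 24 in the knockout (1.02 ± 0.20, adjusted p = 0.292 by limma). Pola1, the catalytic subunit of DNA polymerase alpha, had 9 and 11 against 18 and 17. The glucuronosyltransferase genes Ugt1a6a (12 and 11 against 21 and 20) and Ugt1a6b (18 and 19 against 32 and 29) complete the 5, and as near-identical copies they may share reads, so their values are uncertain.

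In the other direction, Fchsd2 (sequence above) had 31 and 27 in the wild type and 14 and 12 in the knockout (-1.02 ± 0.20, limma adjusted p = 0.292). Preb, the exchange factor that starts COPII vesicle coats, had 17 and 24 against 10 and 9 (-0.94 ± 0.19, limma adjusted p = 0.292). Pdpr, a regulator of pyruvate dehydrogenase phosphatase, had 22 and 23 against 12 and 11, and Zfp873 19 and 16 against 9 and 8. Gpx1, the glutathione peroxidase abundant in red cells, had 19 and 23 against 10 and 11 at a region 113 bases beyond its 3′ end. Bcl2l13 passed with a variance trend (adjusted p = 0.0316), Fchsd2 and Gpx1 passed without knockout replicate 2 (both 0.0481), and Fchsd2, Preb, Pdpr, Gpx1 and Zfp873 passed with scaling by the lowest background (adjusted p from 0.00263 to 0.0122).

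**Figure D4:**
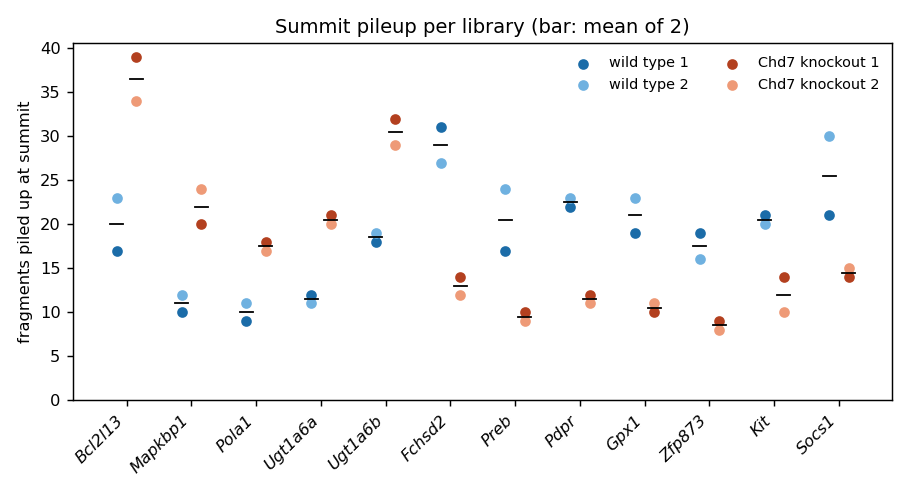
Summit pileup (vertical axis, fragments) in each library for the 5 regions with the largest limma statistics in each direction, and for Kit and Socs1 (horizontal axis). Points are libraries and bars the means of 2. The genotypes separate at each of these genes, which were picked for that, and the means at the upstream Bcl2l13 region are 20 in the wild type and 36.5 in the knockout.

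Median values over the regions at 1 gene end called in all 4 libraries were close between genotypes in pileup and less so in peak width. The median pileup was 25 and 31 in the wild type and 28 and 25 in the knockout. Relative to all regions called in 4 libraries, the centred median was 0.10 ± 0.06 in the wild type and 0.11 ± 0.01 in the knockout (mean ± SD, n = 2 each; difference 0.010, exact permutation p = 1), and this near-zero difference was negative with a 500-base window, lists of equal length, the lowest background as scale or any library left out. The median peak width at these regions was 535 and 568 bases in the wild type and 532 and 502 in the knockout, a difference of -34.5 bases at which the genotypes did not overlap (exact permutation p = 0.333, the smallest that 2 against 2 allows). That difference was -3 bases at 1 h and -66 at 2 h, and it came to -16.5 without wild-type replicate 2 and -19.5 without knockout replicate 2. The gap between these regions and the others was 0.24 and 0.25 in the wild type and 0.21 and 0.24 in the knockout (exact permutation p = 0.667).

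The starts inside these regions were rich in CpG. RefSeq promoter sequences, 250 bases before to 50 after a start, were matched to 4565 starts lying in these regions. They were also matched to 13714 starts of protein-coding genes in no region called in at least 2 libraries, named no region below. A start in a region called in 1 library thus counted as in no region. The median CpG ratio, the observed over the expected number of CpG pairs, was 0.826 in these regions, 0.324 in no region and 0.574 over all 21045 starts. A ratio of at least 0.6 was found at 86.4% of the first and 27.2% of the second, and the median GC content was 62.3% against 52.3%. Within the set, starts with a ratio of at least 0.6 lay in a region called in all 4 libraries in 88.6% of cases and other starts in 75.6%, and the median ratio was 0.834 for starts called in all 4 libraries, 0.678 for those of the knockout alone (40 starts) and 0.787 for those of the wild type alone (66 starts). Starts in regions at ends of 2 or more genes had a median ratio of 0.861, so CpG-rich starts were not particular to regions at 1 gene end.

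Motifs of broadly expressed factors were more frequent at these starts than at starts in no region, and motifs of GATA factors and the TATA box were less frequent. Motif letters were searched on both strands, and all shares are descriptions of letters, not of binding. CCGGAAG (ETS) was in 23.8% of the starts in these regions, 4.46% of starts in no region and 11.7% of all starts. AAGATGGCG (YY1) was in 4.27%, 0.416% and 1.84% of the same 3 sets, and GCGCATGCG (NRF1) in 5.59%, 0.780% and 2.37%. GGGCGGGG (SP) was in 41.5%, 15.6% and 23.8%, CCAATCA (NFY) in 13.4%, 6.90% and 9.18%, TGACGTCA (CREB and ATF) in 4.29%, 1.14% and 2.26%, and the E-box CACGTG in 11.9%, 5.88% and 7.91%. In the opposite order, the GATA-factor letters AGATAA were in 4.97%, 12.2% and 9.68%, those of the TATA box, spelled out above, in 5.35%, 16.8% and 12.7%, TGACTCA (AP-1) in 2.56%, 5.83% and 4.69%, and TGTGGTT (RUNX) in 3.29%, 5.67% and 4.74%, an order that turned among CpG-rich starts. The remaining motifs were CCACACCC (KLF; 4.25%, 3.58% and 3.64%), TGATAA (another form for the same factors; 3.35%, 9.83% and 7.51%), GCTGAGTCA (NFE2, which overlaps the AP-1 letters; 0.219%, 0.518% and 0.418%), CAGCTG (13.1%, 17.4% and 15.7%), CTACAATTC (ZNF143; 1.07%, 0.226% and 0.494%), AGNGGGCGC (CTCF core; 5.94%, 2.84% and 3.85%, also turned among CpG-rich starts) and CTCTTTCC (a polypyrimidine initiator; 3.07%, 3.21% and 3.05%).

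**Figure D5:**
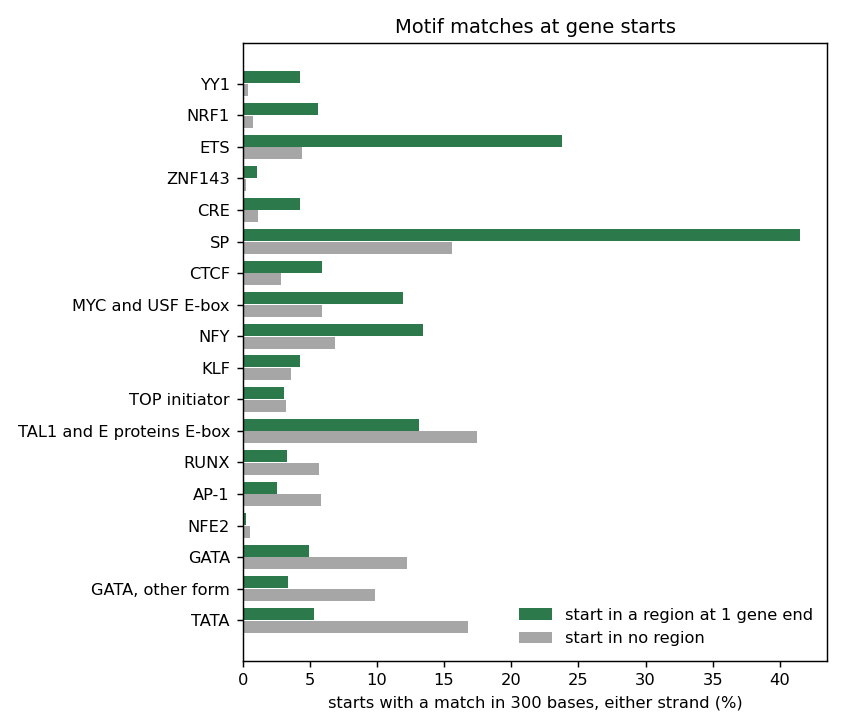
Percent of annotated starts with at least 1 motif match within 250 bases before to 50 after the start (horizontal axis). Starts lie in a region at 1 gene end (green) or in no region called in at least 2 libraries (grey), and motifs are ordered by the ratio. ETS reaches 23.8% against 4.46%, and the TATA box 5.35% against 16.8%.

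Most of these contrasts, but not all, were smaller among CpG-rich starts, within which CpG content was not matched. Among starts with a CpG ratio of at least 0.6, a split chosen after the data were seen, the ETS letters were in 24.6% of starts in these regions and 8.38% of those in no region, the YY1 letters in 4.59% and 1.13%, and the NRF1 letters in 6.13% and 2.26%. There the SP letters were at 44.0% and 36.7% and AGATAA at 4.11% and 4.78%, so the GATA contrast was small among CpG-rich starts. The NFY letters kept about the same contrast (12.0% and 6.23%), and that of the KLF letters was larger (3.98% and 2.93%). The order of the shares turned for the RUNX letters (3.02% in these regions and 2.201% in no region), the CTCF core (6.51% and 8.16%) and the polypyrimidine initiator (3.09% and 2.68%). Matches to ETS letters clustered at the start, with 36.6% of 1335 matches in the last 50 bases before it, and 69.6% of 204 YY1 matches lay in the first 50 bases after it. By genotype, the 212 tested regions with the NRF1 letters had a median limma difference of -0.09 against 0.0034 for regions without them, and the 520 with the NFY letters 0.05 against -0.01. The 180 with the GATA letters AGATAA had 0.05 against -0.01, and the 9 with the NFE2 letters -0.145 against -0.0019. These motifs had the largest gaps of the 18 searched and were picked for that. The medians were not tested.

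Erythroid genes had such regions more often than the markers of other blood lineages. Cytosolic ribosomal protein genes (39 of 55) and cytokine signalling genes (22 of 30) had them more often still. The lists were chosen with earlier results of these data known. Of 32 erythroid genes, 19 had a region of this kind and 22 a region of any kind at an end. They included the transferrin receptor Tfrc (32 and 41 in the wild type, 32 and 29 in the knockout), the mitophagy receptor Bnip3l (51 and 55 against 60 and 51), the iron transporter Slc11a2 (34 and 54 against 41 and 42) and the haem enzyme Cpox (31 and 39 against 34 and 37). No region at an end was found at Alas2, Slc4a1, Ank1, Add2, Tmod1, Rhag, Rhd, Trim58, Hba-a1 or Hbb-bt. The globin genes among them have near-identical copies that can share reads. Of these 19, 16 were called in all 4 libraries and tested, leaving out Epb42, Car1 and Trim10. Of the 16, 0 passed limma and 0 had an unadjusted p under 0.05 (against 8.70% of all regions), and their median difference was 0.04 against 0.02 over all regions. Megakaryocyte markers had a region at 2 of 18 genes (Gp9 and Gp5), granulocyte and macrophage markers at 2 of 18 (Fcgr3 and Cebpb), lymphoid markers at 0 of 18, mast cell markers at 0 of the 9 in the gene table, and stem and progenitor markers at 3 of 16 (Mllt3, Myb and Kit). The Fcgr3 region (strength 2.97) lay 977 bases from the gene's start and within 1 kb of tRNA and miRNA genes. The Cebpb region (strength 2.73) was called in the wild type alone.

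Of 40 blood transcription factors, 18 had a region of this kind. Klf6 (42 and 44 in the wild type, 41 and 38 in the knockout), Tcf3 (64 and 57 against 56 and 53), Bach1 (51 and 57 against 59 and 53) and Nfe2 (39 and 58 against 49 and 41) were the strongest. Runx1, the partner in the series title, had a region at its start in 3 libraries, with a pileup of 19 in wild-type replicate 1 and of 15 and 17 in the knockout, and its binding partner Cbfb had 18 and 28 against 25 and 19. Tal1 was called in 3 libraries, at 19 in wild-type replicate 2 and at 15 and 15 in the knockout, and Myb in 3, at 12 and 12 in the wild type and 9 in knockout replicate 1. Gata1, Gata2, Klf1, Lmo2, Ldb1, Gfi1b and Spi1 had none at an end. The 15 regions tested had a median difference of -0.04, with 0 passing limma and 0 at an unadjusted p under 0.05, against 8.70% of all regions.

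Cytokine signalling genes had a region at 22 of 30. Kit, the receptor for SCF, had pileups of 21 and 20 in the wild type and 14 and 10 in the knockout (-0.66 ± 0.20, limma adjusted p = 0.387). Socs1, a feedback inhibitor of JAK kinases, had 21 and 30 against 14 and 15 (-0.67 ± 0.20, limma adjusted p = 0.387). At both genes the genotypes did not overlap, and both were singled out after their values were seen. By centred pileup, both knockout libraries lay below both wild-type libraries at 17.3% of all regions. The erythropoietin receptor gene Epor had 10 and 20 in the wild type and 20 and 18 in the knockout (0.48 ± 0.24, limma adjusted p = 0.632) at a region inside the gene, 754 bases downstream of its start, where the genotypes overlapped. The strongest of the list were Stat3 (48 and 65 against 60 and 54), Pim1 (69 and 72 against 71 and 72), Sh2b3 (68 and 69 against 57 and 61) and Grb2 (47 and 46 against 45 and 42). Of the 19 tested, 0 passed limma and 2 had an unadjusted p under 0.05, a share near the 8.70% of all regions, with 10 differences above and 9 below zero.

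Housekeeping lists had regions at most of their genes. Cytosolic ribosomal protein genes had one at 39 of 55, with Rpl27a, Rps19, Rps20 and Rpl23 the strongest, proteasome subunits at 21 of 31, with Psma1 first (34 and 43 against 41 and 40), chromatin remodellers at 20 of 32, and cell cycle genes at 20 of 30, with Ccnb1, Cdk4, Mcm3 and Ccne1 the strongest. Smarca4, the BAF ATPase, had 53 and 67 in the wild type and 70 and 59 in the knockout. Chd4, the NuRD ATPase, had 32 and 36 against 19 and 24, with a difference of -0.56 (limma adjusted p = 0.498). Cdk1, the mitotic kinase, had 24 and 25 against 36 and 34, at 0.58 (limma adjusted p = 0.400), and the proteasome subunit Psmb7 11 and 15 against 21 and 17, at 0.60 (limma adjusted p = 0.387). These 3, named after their values were seen, did not overlap between genotypes. By centred pileup, the knockout lay wholly above the wild type at 21.4% of all regions and wholly below it at 17.3%. In limma 0 regions of the 4 lists passed, and those with an unadjusted p under 0.05 numbered 0 of 36 ribosomal, 3 of 18 proteasome, 1 of 16 remodeller and 1 of 19 cell cycle regions, against 8.70% of all regions. Median differences were -0.04, 0.09, 0.05 and 0.10, against 0.02 over all regions.

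Gene families, grouped by symbol after the data were seen, ranged from near-complete absence to most members. Regions of this kind were found at 4 of 1110 olfactory receptor genes, 1 of 355 vomeronasal receptor genes, 1 of 112 keratin genes and 0 of 71 defensin genes. They were found at 35 of 55 genes named Eif, for translation initiation factors, 29 of 47 mitochondrial carriers of the Slc25 family, 30 of 69 Rab genes and 176 of 397 genes named Zfp, against 25.1% of all protein-coding genes. A non-coding gene lay within 1 kb of 984 regions (17.6%), a long non-coding RNA gene at 820 of them, and 88.7% of those 820 were called in all 4 libraries. By chromosome, the share of genes with such a region ran from 15.9% on X, where 71.9% of regions were called in all 4 libraries, to 29.7% on chromosome 5. Chromosome 11, with 434 of these regions, had 18 of the wild type alone and 2 of the knockout alone, the largest gap of any chromosome used. Over all chromosomes used, these classes made up 2.04% and 1.20% of the regions at 1 gene end. Among all regions called in at least 2 libraries, their shares were 2.88% and 3.46%. Chromosome 11 was picked for its gap after the values were seen, and the gap was not tested.

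At the edges of the rule, the regions farthest from their gene end were a second Bach1 region at 1000 bases (20 in wild-type replicate 1 and 24 in knockout replicate 1), Psrc1 at 997 (10 and 12 against 13 and 10) and Gm36327 at 996 (42 and 36 against 43 and 43). Just beyond 1 kb lay regions 1002 bases from 9430038I01Rik (64 and 72 against 54 and 54), 1007 from Gpt (19 and 27 against 27 and 24) and 1008 from Ssbp4 (15 and 14, wild type alone). At the minimum of 2 calls, 417 regions were called in exactly 2 libraries, with a median width of 344 bases and a median highest pileup of 13. Below it, 616 regions at 1 gene end were called in 1 library, with 232.5 bases and a pileup of 11.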

How the data were processed

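Open chromatin was profiled by ATAC-seq in 4 libraries, and each deposited file is the peak list of 1 library. The submitters' processing notes name Bowtie2 2.2.1 and MACS2 2.1.0 without saying what each did. How reads were shifted and filtered, and the threshold of calling, is not given in the sources used here. For every peak the deposited lists give a score, a fold enrichment (a ratio of pileup to background at the summit) and −log10 p and q values, all as the authors' caller gave them. Total reads are unknown, so the intervals cover counting error only.

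Fold enrichment, read as (pileup + 1)/(background + 1), and the Poisson p-value gave back the whole-number pileup and the background of 100% of peaks within 0.001 in −log10 p. This assumes that pileups were not rescaled. Where a library had several peaks in a region, the one of highest fold enrichment was used. Regions called in all 4 libraries were compared in limma 3.58.1 (R 4.3.3) on log2(pileup + 1) centred on each library's median, a scale that understates changes of low values, with both genotypes sharing 1 estimate of the spread and Benjamini-Hochberg adjustment over all 8698 regions. An exact two-sided permutation over the 6 assignments compared single values. The rest was done in Python 3.11.15 with scipy 1.17.1, pandas 2.3.3, numpy 2.4.6 and matplotlib 3.10.9. The steps were tested on simulated data. In simulated pileups, whose spread was set and not fitted to these libraries, limma called 13 of 100 regions with a log2 change of 1. It called 90 of 100 with a log2 change of 2, so most changes of the smaller size would be missed under that spread.

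The regions and the 13 gene lists were chosen with earlier results of these data known, and the result of 1 list is not reported here. Named genes were the 10 strongest regions, the 10 strongest of each genotype alone, the 5 largest limma statistics in each direction (none having passed), up to 4 genes per list by strength, the 5 widest regions, the 3 on each side of 1 kb, genes with most regions, and for sequences up to 2 per motif. Car1, Tcf12, Epb42, Kel, Kit, Socs1, Epor, Runx1, Cbfb, Tal1, Myb, Smarca4, Chd4, Cdk1 and Psmb7, where outside this rule, were added after their values were seen, as were gene families, non-coding neighbours, chromosomes, motif position and the CpG split. Same-numbered libraries did not deviate together, so numbers were not used as pairs. Alternatives were a 500-base window, −log10 q of at least 5, lists of equal length, summits within 1 kb, each library left out, a pseudocount of 5, 2 other scalings, a variance trend and a replicate block.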

Additional observations from a re-analysis of the deposited data

Results flagged for a closer look

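Several measures of the regions at 1 gene end moved one way at the labelled time 1 h and the other way at 2 h, knockout minus wild type. With 1 library per genotype and time, these differences were not tested. The number of these regions called was higher by 43 at 1 h and differed by -251 at 2 h. As a share of the regions each library called, the difference in percentage points was -4.90 at 1 h and 0.501 at 2 h. Their median pileup differed by 3 fragments at 1 h and by -6 at 2 h. Their centred median log2 pileup differed by 0.0465 at 1 h and by -0.0265 at 2 h. The lowest background, a measure of depth, was 0.787 in the wild type and 1.04 in the knockout at 1 h. At 2 h it was 1.08 and 1.01. The number of all peaks differed by 1357 at 1 h and by -672 at 2 h. The part of depth in these differences was not tested.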

How the results depend on the processing

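Of 87 alternative values for the 10 summary results, 71 counted as unchanged. This meant within 1.5 times for counts, the same number for limma calls and the same sign alone for differences between genotypes. The start share had to stay within its main interval and the CpG ratio within its SD over starts. For the differences in per-library values, the replicate block returns the main value by construction. The centred median log2 pileup of these regions, 0.010 knockout minus wild type, reversed to -0.0172 with gene ends within 500 bases, to -0.0485 with lists of equal length, to -0.224 with scaling by the lowest background, and to between -0.0549 and -0.0326 with each library left out. The share at a gene start moved to 98.2% with the 500-base window. Regions called in the knockout alone numbered 118 to 205 without a wild-type library, and those called in the wild type alone 207 to 324 without a knockout library, since 1 call fewer had to be absent. With 1 library left, a genotype's own count cannot be had, as 1 call makes no member. In limma, 0 to 21 of these regions passed with each library left out (the lone library is assumed to vary like the others), 42 with scaling by the lowest background and 2 with a variance trend. The cause of these changes was not tested. The replicate block gave 0 of these regions, as without it, and 2 over all regions, and same-numbered libraries' deviations had a correlation of 0.0018 over 8698 regions, so the numbers show no pairing. Of 161 recomputed differences at named genes, 0 reversed and 8 passed the threshold. Applying the region settings to the CpG ratio and the gene lists was chosen after seeing the data and changed neither beyond these limits. Pileups of 7 to 30 fragments limit the precision at weak regions.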
